A study of Rattus norvegicus with 9 samples.

Results

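Bile duct cells (cholangiocytes) were followed through 9 marker genes, Krt19, Krt7, Epcam, Sox9, Spp1, Cftr, Cd24, Slc4a2 and Aqp1, in the livers of diabetic rats with and without chronic stress. The members were all probe sets that the array annotation assigns to these symbols, out of 14217 genes named on the array. Of the 9 genes, 8 had a probe set, Aqp1 had 2, and no probe set carried Sox9, a transcription factor of the duct lineage, so Sox9 has no value here. Of the 8 measured genes, 7 passed the filter on dim probe sets and Krt7 did not.

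Liver RNA of 9 male Goto-Kakizaki (GK) rats, an inbred strain that becomes diabetic without a diet or a drug, was hybridised to 1 Affymetrix rat array per rat, and each value is a MAS 5.0 signal on a linear scale. CUMS 1, 2 and 3 (the major group, given as Major Depression in the labels) and CUMS 4, 5 and 6 (the mild group, given as Mild Depression) were housed alone for 8 weeks and met a different stressor each day, which is chronic unpredictable mild stress (CUMS). Control 1, 2 and 3 (undepression in the labels) were kept without stress over the same weeks. All 9 rats had been bought at 5 weeks of age and housed for 7 weeks until blood glucose reached 11 mmol/L, and after the stress period all rats, controls too, received the glucose-lowering drug repaglinide at 6 mg/kg by gavage with blood sampling over 8 h. The rule by which the labels divide the stressed rats into major and mild is not given in the sources used here, and single housing and the stressors cannot be told apart.

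Cholangiocytes line the bile ducts, make up a small share of the liver, and change the bile that hepatocytes secrete by moving chloride, bicarbonate and water into it. Keratins 7 and 19 and the adhesion molecule Epcam separate them from hepatocytes, and after injury they can multiply in a ductular reaction, together with immature cells that carry some of the same genes. Not every marker belongs to the ducts alone. Spp1 is also made by stellate cells and macrophages, Cd24 by several blood cells, Aqp1 by endothelium and red cells, and Slc4a2 by hepatocytes. The signals come from whole liver, in which fewer cells of a type and less RNA per cell cannot be told apart.

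The proximal promoters of Spp1, Cftr and Cd24 are shown because these were the 3 members with the largest signal of control 3 relative to control 1 and 2. Each is the RefSeq sequence (GRCr8) of the 250 bases before the gene's start, 5′ to 3′ on the gene's strand, in lower case with motif matches in capitals. Spp1 lies at chr14:5619805-5620054 (minus strand), Cftr at chr4:47527379-47527628 (plus strand) and Cd24 at chr20:48656227-48656476 (plus strand).
Spp1: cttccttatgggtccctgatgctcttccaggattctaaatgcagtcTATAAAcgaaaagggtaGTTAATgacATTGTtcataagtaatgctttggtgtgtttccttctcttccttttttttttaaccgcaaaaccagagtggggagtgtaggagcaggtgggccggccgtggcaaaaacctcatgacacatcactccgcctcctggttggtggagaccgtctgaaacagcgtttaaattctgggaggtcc
Cftr: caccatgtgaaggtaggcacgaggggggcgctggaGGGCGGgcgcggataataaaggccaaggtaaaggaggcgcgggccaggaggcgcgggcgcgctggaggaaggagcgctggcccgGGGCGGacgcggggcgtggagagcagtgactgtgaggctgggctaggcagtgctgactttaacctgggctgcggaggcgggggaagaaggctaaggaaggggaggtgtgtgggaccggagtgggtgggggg
Cd24: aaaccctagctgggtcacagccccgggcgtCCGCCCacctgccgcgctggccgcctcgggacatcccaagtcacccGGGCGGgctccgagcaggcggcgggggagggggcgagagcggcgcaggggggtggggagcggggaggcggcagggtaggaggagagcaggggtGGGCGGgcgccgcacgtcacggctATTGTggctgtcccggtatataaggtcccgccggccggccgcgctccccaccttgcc
Both strands were searched for the TATA box (TATAAA), the binding letters of AP-1 (TGANTCA), of RBPJ, the DNA-binding factor of Notch signalling (TGGGAA), of SOX factors (ACAAT), of HNF1 as a half-site (GTTAAT) and of HNF6 (ATCAAT), and for the boxes of promoters named CCAAT and GC (GGGCGG). No match in these windows overlapped another. In Spp1 the capitals mark the letters of a TATA box, an HNF1 half-site and a SOX match on the other strand. The Spp1 window had 46.8% G and C, and its TATA letters lay 204 to 199 bases before the start. Whether they act as a TATA box was not tested. In Cftr they mark 2 GC boxes, in a window with 69.2% G and C. In Cd24 they mark 3 GC boxes, of which the first is on the other strand, and a SOX match on the other strand, in a window with 75.6% G and C. No motif was found in all 3 promoters. Of 33469 promoters of the same length, 12.9% held a TATA box, 6.45% an HNF1 half-site, 30.0% a SOX match and 30.5% a GC box by these letters. The table held 6 of the 9 members.

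Albumin (Alb), the main plasma protein made by hepatocytes, had signals of 17128 to 29583 in the 9 livers. Control 3 stood apart from the other 8 rats. Its median correlation with the other arrays was 0.951, against 0.965 to 0.972 for the rest, and it lay at −60.5 on the first principal component, with the others between −2.8 and 21.9. The 3′ to 5′ signal ratio of beta-actin, which is higher in degraded RNA, was 2.51 in control 3 and 3.18 to 5.23 in the others. The comparison of all CUMS rats with the controls is therefore given with and without control 3 for each member.

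Control 3 had the highest signal of the 9 rats in 7 of the 8 measured members, all but Slc4a2, while control 3 was the highest array in 20.1% of the 18625 probe sets kept by the filter and in 18.8% of all 31042. Of these 7, Krt7, which lay under the filter, and Aqp1 were close to a tie, with control 3 at 1.04 and 1.02 times the next highest rat. Spp1 (osteopontin, a secreted matrix protein) had a signal of 7740 in control 3 and of 124 to 206 in the other 8 rats. No other kept probe set had as large a ratio of control 3 to the next highest rat (1 of 18625, or 0.00537%), which was 37.7 for Spp1 and 29.5 for Fabp4, a fatty acid carrier of fat cells and macrophages. Against the mean of control 1 and 2, control 3 was 44.5 times as high in Spp1, 4.08 times in Cftr, 2.83 times in Cd24 and 1.98 times in Krt19. At least 2 times the level of control 1 and 2 was reached by 3 of the 8 members and by 4.32% of kept probe sets, and at least 4 times by 2 members and by 0.574%. A ratio at least that of Cftr was found in 0.553% of kept probe sets, at least that of Cd24 in 1.34%, and at least that of Krt19 in 4.43%. Cftr passed the filter narrowly, at a mean log2 signal of 6.16 against a limit of 6.07. That mean holds control 3 at 7.86, beside 5.18 to 6.83 in the other rats. The place of Cftr among kept probe sets thus leaned on control 3 itself. Epcam, at 1.42 times, and Aqp1, at 1.19 times, were closer to the rest of the array, since 14.4% and 28.6% of kept probe sets reached these ratios. Slc4a2 was at 0.977 times the mean of control 1 and 2. The plot of signals by rat shows this for each gene.

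**Figure D1:**
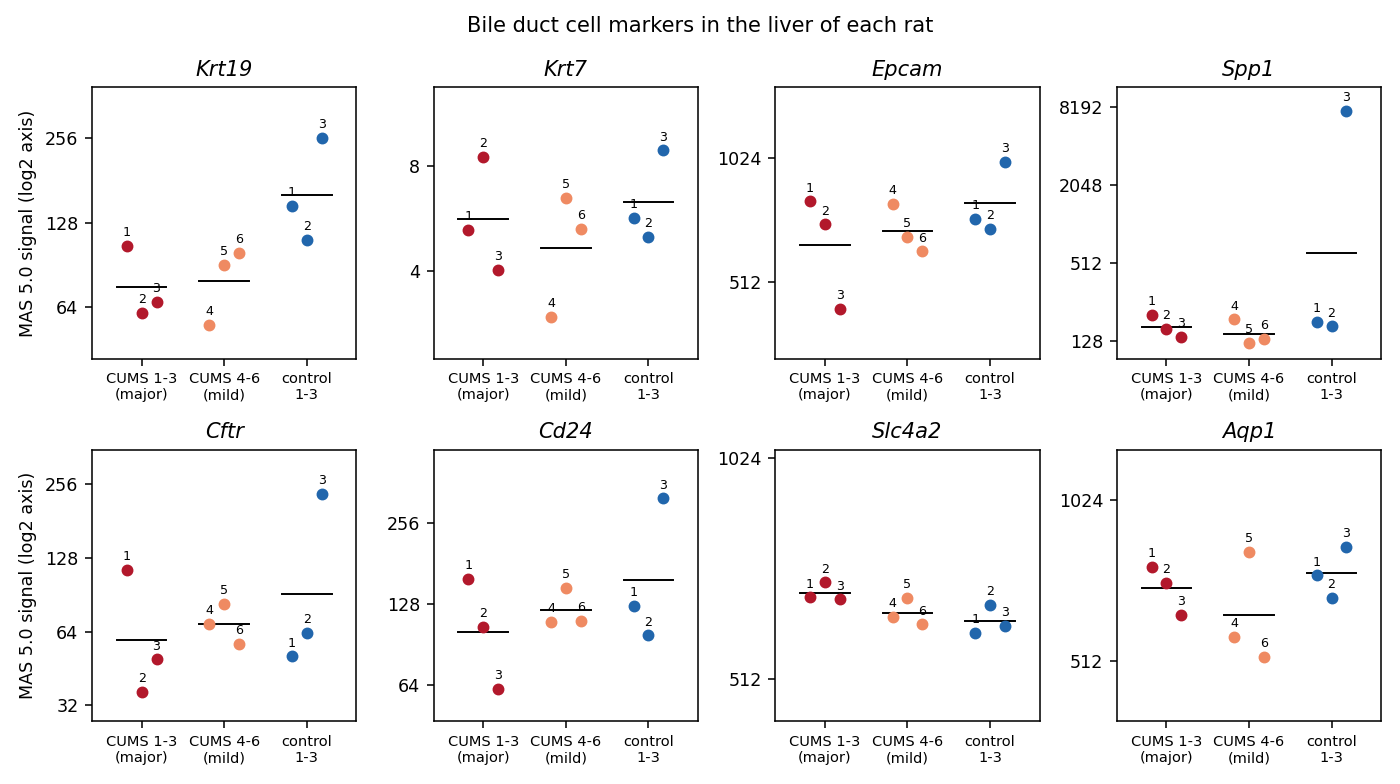
MAS 5.0 signal (log2 axis, with its own range in each panel) of the 8 measured bile duct markers in each rat, numbered as CUMS 1 to 3 (major), CUMS 4 to 6 (mild) and control 1 to 3. Lines are group means on the log2 scale. Control 3 is the highest point in every panel but that of Slc4a2, and in Spp1 it lies at 7740 with all other rats between 124 and 206.

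Krt19 was the one member whose stressed rats all lay under all controls. Krt19 (keratin 19, a filament protein of duct epithelium) had signals of 106, 61.2 and 66.9 in CUMS 1 to 3, of 55.5, 90.8 and 100 in CUMS 4 to 6, and of 147, 111 and 256 in control 1 to 3. The highest stressed rat, CUMS 1, was just under the lowest control, control 2, and control 3 was the highest of all. The probe set was dim. Its signal was above the median of its array in 2 of the 9 rats, control 1 and control 3, and in no CUMS rat. The means were 78.1 ± 24.5 in the major group, 82.1 ± 23.5 in the mild group and 171 ± 75.4 in the controls (SD, n = 3 each). The log2 fold change of all 6 CUMS rats against the controls was −1.05 (standard error 0.33, 95% interval −1.77 to −0.33), which is 0.483 times the control level, with 6 of 6 rats lower. It did not pass the test over all probe sets (adjusted p = 0.517 from limma), and over 17 alternatives the adjusted p ran from 0.375 to 0.905. The unadjusted p was 0.00853. The major group stood at −1.09 (standard error 0.38) with an adjusted p = 0.722 from limma, and the mild group at −1.02 (standard error 0.38) with an adjusted p = 0.755 from limma.

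Without control 3, the log2 fold change of Krt19 in all CUMS rats was −0.72 (95% interval −1.47 to 0.04), or 0.608 times the level of the remaining controls. Control 3 was the highest control, so leaving it out could not make the groups overlap. Groups that did not overlap in the lower direction were found in 2.15% of probe sets for all CUMS against control, and in 4.42% without control 3. For the major group the shares were 6.32% and 11.2%, and for the mild group 6.29% and 11%. At an unadjusted p under 0.05, lower, 4.86% of probe sets passed for all CUMS, 4.17% for the major group and 3.55% for the mild group, and Krt19 was the only one of the 8 measured members among them in each comparison. The share of probe sets called at an adjusted p under 0.05 in limma was 0% in all 4 comparisons. Without the adjustment, 1477 probe sets passed for all CUMS, 1259 for the major group, 1170 for the mild group and 530 for major against mild. The equal-variance test of each probe set alone, with the same adjustment, gave 1 call (Tmem123) in the major group and 0 in the other comparisons.

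Krt7 (keratin 7, the other duct keratin) gave signals near the lower end of the array. They were 5.25, 8.52 and 4.03 in CUMS 1 to 3, 2.96, 6.48 and 5.28 in CUMS 4 to 6, and 5.67, 5.01 and 8.88 in control 1 to 3. The groups overlapped, with control 3 and CUMS 2 as the highest rats. All CUMS against control gave a log2 fold change of −0.30 (95% interval −1.70 to 1.09), and of −0.06 without control 3 (95% interval −1.73 to 1.62).

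Epcam (a cell adhesion protein of epithelia) had signals of 802, 706 and 439 in CUMS 1 to 3, of 793, 657 and 607 in CUMS 4 to 6, and of 729, 687 and 1003 in control 1 to 3. CUMS 3 was the lowest rat and control 3 the highest, and the other 7 rats lay within 607 to 802. The log2 fold change was −0.34 in the major group, −0.22 in the mild group and −0.28 in all CUMS rats (95% interval −0.72 to 0.16 for all CUMS), and the last was −0.11 without control 3 (95% interval −0.59 to 0.37).

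Cd24 (a surface glycoprotein of duct and progenitor cells) had signals of 159, 105 and 61.7 in CUMS 1 to 3, of 110, 147 and 111 in CUMS 4 to 6, and of 126, 97.8 and 317 in control 1 to 3. CUMS 3 was again the lowest rat and control 3 the highest, at 1.99 times the next. The log2 fold change of all CUMS against control was −0.51 (95% interval −1.36 to 0.35), and 0.00 without control 3 (95% interval −0.77 to 0.77).

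Spp1 had signals of 206, 160 and 138 in CUMS 1 to 3, of 189, 124 and 133 in CUMS 4 to 6, and of 181, 167 and 7740 in control 1 to 3. Control 1 and 2 lay within the range of the stressed rats, so the 3 groups overlapped and the control mean of 2696 ± 4368 (SD, n = 3) was set by 1 rat. On the log2 scale the major group differed from the controls by −1.90 (standard error 1.13), the mild group by −2.08 (standard error 1.13) and all CUMS rats by −1.99 (standard error 0.98), the last with an adjusted p = 0.664 from limma. These were the largest differences of any measured member in the comparisons with the controls. Without control 3 they were −0.07, −0.25 and −0.16, and the 95% interval for all CUMS ran from −0.69 to 0.37.

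Cftr, Slc4a2 and Aqp1 carry duct transport. Cftr, the chloride channel of the apical membrane that secretin opens through cyclic AMP, had signals of 114, 36.4 and 49.3 in CUMS 1 to 3, of 68.8, 83.1 and 57.0 in CUMS 4 to 6, and of 50.7, 63.3 and 232 in control 1 to 3. CUMS 1 was the second highest rat, CUMS 2 the lowest and control 3 the highest, and the groups overlapped. On the log2 scale the fold change of Cftr was −0.62 in the major group, −0.40 in the mild group and −0.51 in all CUMS rats (95% interval −1.63 to 0.61 for all CUMS). Without control 3 all 3 values turned round, to 0.06, 0.28 and 0.17.

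Slc4a2 (the chloride-bicarbonate exchanger AE2, which works with Cftr to put bicarbonate into bile) had the narrowest range of the members, 1.17 times from the lowest to the highest rat. Its signals were 661, 693 and 657 in CUMS 1 to 3, 621, 660 and 607 in CUMS 4 to 6, and 591, 646 and 604 in control 1 to 3. All 3 major rats lay above all 3 controls, by at least the small step between 657 in CUMS 3 and 646 in control 2, while mild rats and controls overlapped. In the major group its log2 fold change was 0.13 (standard error 0.12, 95% interval −0.13 to 0.38, adjusted p = 0.873 from limma), and 5.3% of probe sets had groups that did not overlap in this direction. All CUMS rats stood at 0.08 (95% interval −0.14 to 0.30), and at 0.07 without control 3. By the probe set that stands for each gene, Slc4a2 was the only member with a higher mean in the CUMS rats, in the major, mild and pooled comparisons alike.

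Aqp1 (aquaporin 1, a water channel) was measured by a pair of probe sets that ordered the rats differently. The first gave 767, 716 and 625 in CUMS 1 to 3, 569, 818 and 522 in CUMS 4 to 6, and 740, 672 and 837 in control 1 to 3. The second gave 321, 292 and 320 in CUMS 1 to 3, 329, 324 and 415 in CUMS 4 to 6, and 305, 301 and 423 in control 1 to 3. CUMS 6 was the lowest rat on the first and the second highest on the second, and their log2 signals had a correlation of −0.15 over the 9 rats and of −0.66 without control 3. For all CUMS against control the first gave a log2 fold change of −0.18 (95% interval −0.52 to 0.17) and the second −0.03 (95% interval −0.37 to 0.31). Without control 3 they stood at −0.09 and at 0.13, on opposite sides of 0. On the second, all 3 major rats lay below all 3 mild rats, at −0.19 (95% interval −0.59 to 0.21), where 4.37% of probe sets had groups apart in this direction.

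**Figure D2:**
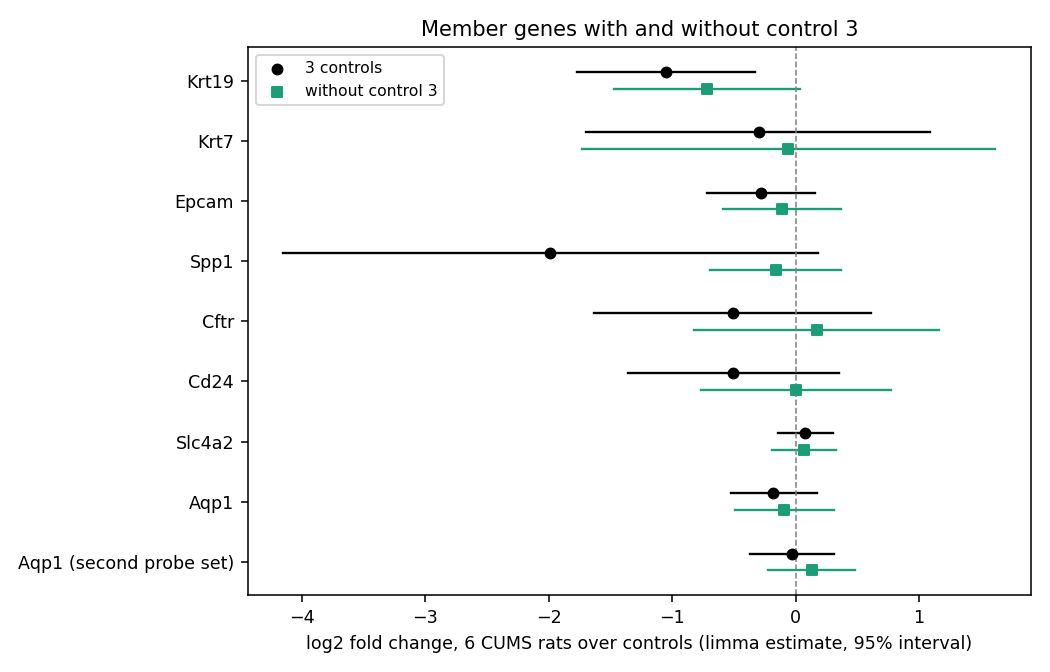
Log2 fold change of the 6 CUMS rats over the controls for each measured bile duct marker (limma estimate with 95% interval), with all 3 controls (circles) and without control 3 (squares). Krt19 is the one gene whose interval with 3 controls, −1.77 to −0.33, lies below 0, and Spp1 lies at −0.16 without control 3, beside −1.99 with it.

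Over the 8 measured members, 7 had a lower mean in the CUMS rats in each comparison with the controls. The median log2 fold change was −0.48 in the major group, −0.38 in the mild group and −0.40 in all CUMS rats, beside −0.006, −0.021 and −0.013 over all 18625 probe sets, of which 51.1%, 53.7% and 52.7% had a lower mean. Without control 3 the medians of the members were −0.04, −0.12 and −0.07, and 5, 5 and 6 of the 8 were lower, beside 50.3%, 52.2% and 51.5% of all probe sets. The 3 comparisons share their controls, so they are not separate observations. Between the stressed groups, major against mild, 4 members were higher and 4 lower, with a median of 0.01 beside 0.006 over all probe sets, of which 48.7% were lower. All 9 probe sets of the members had a 95% interval that held 0. The widest of these, for Spp1, ran from −2.32 to 2.68, and the narrowest, for Slc4a2, from −0.16 to 0.35. At the thresholds of the study's methods (unadjusted p under 0.05 from the equal-variance test, and a fold of at least 1.5 or at most 0.5), 1 member, Krt19, passed in all CUMS against control and 0 in the major or the mild group, beside 0.883%, 0.699% and 0.876% of 31042 probe sets that passed as lower. In all CUMS, 484 probe sets passed as higher and 274 as lower. The paper, which counts genes, lists far fewer, so its own list was not reproduced here.

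The stressed rats also differed from one another. The mean of the 8 members, as deviation of log2 signals from each gene's mean over the 9 rats, was 0.15, −0.21 and −0.52 in CUMS 1 to 3, −0.31, −0.03 and −0.26 in CUMS 4 to 6, and −0.03, −0.14 and 1.35 in control 1 to 3. CUMS 1 was second to the highest rat in 5 of the 8 genes, and CUMS 3 lay below both control 1 and control 2 in 7 of 8. Thus the major group held both the highest and the lowest score among the 8 rats other than control 3.

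Across rats, the log2 signals of the members had a median correlation of 0.54 over 28 gene pairs and 9 rats, with 16 pairs above 0.5. Without control 3 the median was 0.28 and 4 pairs were above 0.5. Epcam and Spp1 kept a correlation of 0.70 over the 8 rats, beside 0.67 over 9, so this pair did not rest on control 3. Epcam and Cd24 stood at 0.79 over 8 rats, and Cftr and Cd24 at 0.61. Krt19 and Slc4a2 ran in opposite directions, at −0.58 over 9 rats and −0.49 over 8. These values are a description, since all genes of a rat share 1 array and 1 RNA.

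**Figure D3:**
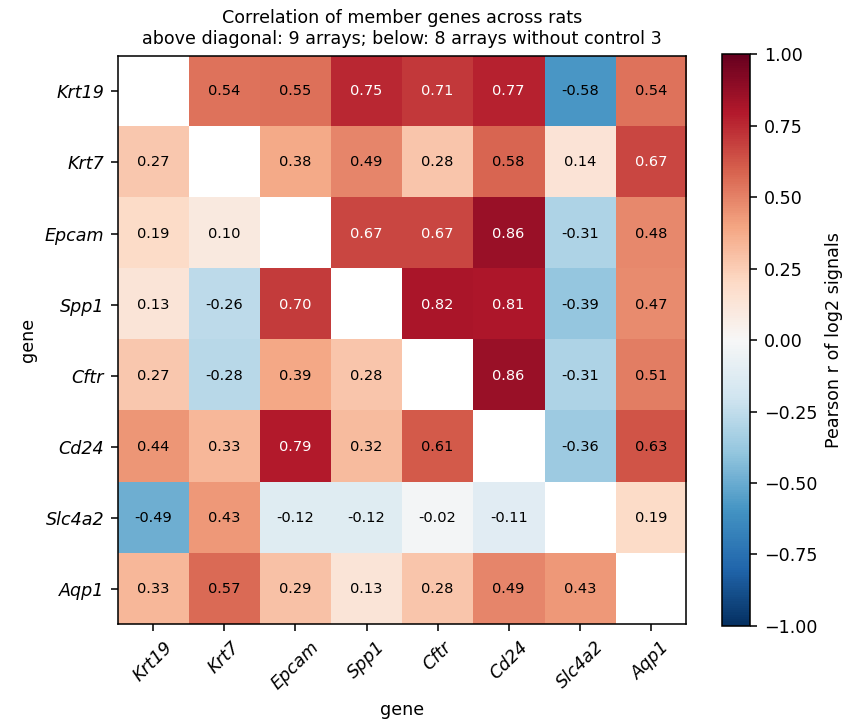
Pearson correlation of log2 signals between the measured bile duct markers across rats, over all 9 arrays above the diagonal and over the 8 without control 3 below it. Most pairs are above 0.5 with control 3 (16 of 28), and 4 are above 0.5 without it, among them Epcam with Cd24 at 0.79 and Epcam with Spp1 at 0.70.

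The 5 genes whose log2 signals were most like the mean of the members over the 9 rats were Dtx4 (a Notch pathway ubiquitin ligase, correlation 0.992), Emp1 (an epithelial membrane protein, 0.989), Tfpi2 (a protease inhibitor, 0.979), Scd2 (a fatty acid desaturase, 0.976) and Nrp1 (a semaphorin and VEGF co-receptor, 0.975). All 5 were highest in control 3, where Emp1 had a signal of 1891 against 216 to 411 in the others and Dtx4 one of 453 against 130 to 200. Over the 8 other rats the correlations were 0.94, 0.91, 0.83, 0.80 and 0.79. The 5 genes were picked by their correlation over all 9 rats, these 8 among them, so the values over 8 are not a separate check.

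Other genes of the duct were read from lists set up by their known roles. Among 15 measured genes of duct surface, keratins and junctions, 10 were lower and 5 higher in all CUMS rats, with a median log2 fold change of −0.23 and of −0.10 without control 3. St14 (matriptase, a membrane protease) had signals of 138 to 168 in the CUMS rats against 180, 186 and 263 in control 1 to 3, without overlap, and a log2 fold change of −0.45 (adjusted p = 0.595 from limma). Krt18, the keratin that ducts share with hepatocytes, had 4318 to 7236 in the CUMS rats against 6724, 8357 and 5940 in control 1 to 3, at −0.42 (adjusted p = 0.605 from limma). Cldn3, a tight junction claudin, had 1287 to 1975 in the CUMS rats against 2506, 2385 and 1587 in control 1 to 3. In Krt18 and Cldn3 control 3 was the lowest control, unlike the members, and without it the log2 fold change of each was −0.53.

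Of 13 measured genes of duct secretion and bile acid handling, 5 were lower and 8 higher in all CUMS rats, with a median of 0.05 and of 0.03 without control 3. Abcc3, an exporter of bile acids and conjugates, had 95.4, 50.2 and 128 in CUMS 1 to 3, 102, 24.6 and 55.6 in CUMS 4 to 6, and 125, 128 and 313 in control 1 to 3. Its log2 fold change was −1.37 (adjusted p = 0.565 from limma) and −0.93 without control 3. Car2 (carbonic anhydrase 2, which supplies bicarbonate) was at −0.35 (adjusted p = 0.595 from limma). Sctr, the secretin receptor, and Slc10a2, the apical bile acid transporter of cholangiocytes, were under the filter.

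Among 11 measured fate factors and Notch genes, 6 were lower and 5 higher, with a median of −0.02 and of 0.10 without control 3. Onecut1 (HNF6) was at −0.57 (adjusted p = 0.707 from limma). Sox4, a SOX factor of the duct lineage, had a signal of 1076 in control 3 and of 238 to 435 in the other rats. Control 3 was the highest rat in 4 of the 11 genes, and in Hes1 it was the lowest, at 1210 against 1573 to 2525. Among 6 cilium genes 5 were lower, with a median of −0.21 and of −0.13 without control 3. The genes of the ductular reaction were lower in 7 of 10, at a median of −0.35 and of −0.13 without control 3, with control 3 as the highest rat in 7 of 10. Lgals3 (galectin 3) and Vim (vimentin), both also genes of macrophages and stromal cells, had 8310 and 7391 in control 3 and at most 1993 and 2084 in any other rat. No gene of these 5 lists passed the test over all probe sets in limma. At an unadjusted p under 0.05, 2 of 15 genes were lower in the surface list, 2 of 13 in the secretion list, 2 of 10 in the ductular reaction list, 0 of 11 among fate factors and 0 of 6 among cilium genes, beside 4.86% of all kept probe sets.

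Some lists of other liver cells, but not the hepatocyte genes, were also highest in control 3. Control 3 was the highest rat in 12 of 12 stellate cell and fibroblast genes, whose summed signal was 5375 to 8430 in the CUMS rats, 8419 and 8548 in control 1 and 2, and 33659 in control 3. Col1a1, which defines collagen-making cells, had 2493 in control 3 and at most 160 elsewhere. Control 3 was also the highest in 8 of 8 cell division genes (summed signal 485 to 1010 in the CUMS rats, 925 and 923 in control 1 and 2, 3347 in control 3), in 5 of 8 Kupffer cell and macrophage genes (17139 to 27224 in the CUMS rats, 29298, 23803 and 28876 in control 1 to 3) and in 0 of 9 hepatocyte genes (182575 to 239175 in the CUMS rats, 216522, 217006 and 177294 in control 1 to 3). The mean log2 signal of control 3 was above that of control 1 and 2 by 1.44 for the bile duct markers, 1.99 for stellate genes, 1.98 for cell division genes, 1.32 for lymphocyte and neutrophil genes, 1.12 for the ductular reaction, 0.52 for endothelial genes, 0.43 for macrophage genes and −0.30, thus below them, for hepatocyte genes. In the other duct lists control 3 was less raised, by 0.48 for duct surface, keratins and junctions, 0.39 for secretion, 0.35 for cilium genes and 0.20 for fate factors. The mean of 1.44 for the bile duct markers includes Spp1, at 44.5 times control 1 and 2, and the median over the 8 markers was 0.87. In the lymphocyte and neutrophil genes CUMS 3 was higher still than control 3, at 1.39, and control 1 and 2 themselves lay apart, at 0.69 and −0.69. The part of these cell types in the signals of Spp1 and the other members was not tested.

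**Figure D4:**
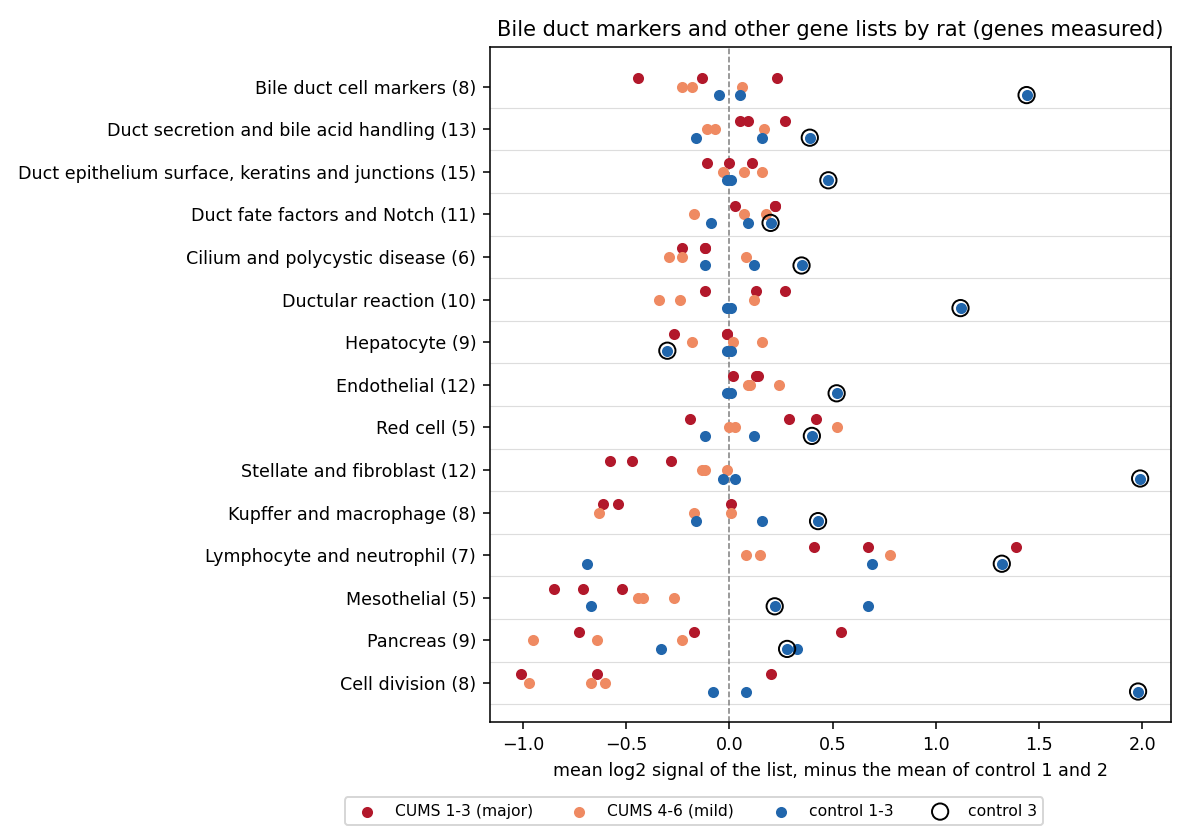
Mean log2 signal of each gene list in each rat, as difference from the mean of control 1 and 2, for CUMS 1 to 3 (major), CUMS 4 to 6 (mild) and control 1 to 3, with control 3 ringed and the number of measured genes in brackets. Control 3 stands apart in the bile duct markers (1.44, with a median over the markers of 0.87), stellate genes (1.99), cell division genes (1.98) and the ductular reaction (1.12). It lies at 0.20 to 0.48 in the other duct lists and below control 1 and 2 in the hepatocyte genes (−0.30).

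In all CUMS rats against the controls the median log2 fold change was −0.63 for stellate genes, −0.44 for macrophage genes and −1.25 for cell division genes. Without control 3 these were −0.35, −0.29 and −0.77, beside −0.07 for the bile duct markers and −0.008 for all probe sets. Endothelial genes, which bear on Aqp1, stood at 0.01 and at 0.15 without control 3, and red cell genes at 0.02 and −0.07. Lymphocyte and neutrophil genes, which bear on Cd24, stood at −0.01 and at 0.34 without control 3. Of these 7 genes 3 passed the filter, and control 3 was the highest rat in 1. Hepatocyte genes stood at 0.05 and −0.05, mesothelial genes at −0.80 and −0.49, and pancreas genes, of which 1 of 9 passed the filter, at −0.58 and −0.24. Adgre1, which defines macrophages, had 478 to 753 in the CUMS rats against 940, 765 and 1920 in control 1 to 3, just without overlap. Clec4f, of the same list, had 4667 to 7336 in the CUMS rats against 6745, 6066 and 4304 in control 1 to 3. Reln, a gene of stellate cells, had 808 to 1146 in the CUMS rats against 1383, 1618 and 1640 in control 1 to 3, without overlap (log2 fold change −0.59, adjusted p = 0.317 from limma). Groups apart in the lower direction were found in 3 of 8 cell division genes, 1 of 8 macrophage genes and 1 of 12 stellate genes, beside 2.15% of kept probe sets. At an unadjusted p under 0.05 in limma, lower, there were 6 of 8 cell division genes, 6 of 12 stellate, 3 of 8 macrophage and 3 of 5 mesothelial genes. Endothelial genes had 1 of 12 and hepatocyte genes 0 of 9, beside 4.86% of kept probe sets.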

How the data were processed

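Liver RNA of 9 rats, 1 array per rat, was used: 3 rats each in the major, mild and control groups, as the labels give them. The authors extracted RNA with TRIzol and RNeasy, used the 3′ IVT Express kit for labelling, and made the deposited intensities, which are linear signals, with MAS5 (named in the submitters' processing notes). Their mean was 500.2 on each array once the lowest and highest 2% are left out. Here, 57 control probe sets were dropped, 586 signals below 1 were set to 1, and log2 was taken. The dimmest 40% (mean log2 signal below 6.07) were left out, which kept 18625 of 31042 probe sets. A mean for each group was fitted with limma 3.58.1 in R 4.3.3 with a variance trend (6 residual degrees of freedom), with Benjamini-Hochberg adjustment over all kept probe sets and a threshold of 0.05.

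A gene stands for its probe set with the highest mean log2 signal. Krt7, under the filter, takes its values from a fit without the filter. The annotation gave 1 symbol to 20826 probe sets, several to 436 and none to 9780. The text names all members, up to 3 genes of each of 14 lists by smallest p in all CUMS against control, the genes that define a list, and the 5 genes most correlated with the mean of the members. Sox4, Hes1, Clec4f, Sctr, Slc10a2, Fabp4, Tmem123 and Gsta3 were named for their values or roles. The fit was tested on simulated data. Alternatives were quantile normalization, median centring, log2 of signal plus 50, no filter or a stricter one, only the groups compared, no variance trend, array weights, an equal-variance test of each probe set alone as the study's methods name, the replicate number as a block, and leaving out each rat. The members and lists were chosen with earlier results of these data known. The number of arrays limits the precision, and nothing beyond the labels says whether litters or batches were shared.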

Additional observations from a re-analysis of the deposited data

Results flagged for a closer look

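The second Aqp1 probe set had 1 rat far from the others of its treatment. CUMS 6 had a signal of 415 there and the other 5 CUMS rats had 292 to 329, and the gap to the nearest of them was 0.662 of the range of the 6 rats on the log2 scale. The first Aqp1 probe set gave CUMS 6 the lowest signal of all rats, 522. The limit used is Dixon's critical value, which by its construction marks about 1 of 20 groups by chance, and the groups of 3 were not examined for it.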

How the results depend on the processing

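Of 1038 values for 58 results under the alternatives, 1009 counted as the same as in the report. For a single fold change this meant the same direction and the same side of the threshold. For a median of the members it meant a difference under 0.42, the standard deviation of that median between rats, whatever its sign. For a number of calls it meant an equal number. The equal-variance test called 1 probe set in the major group (Tmem123), and median centring called 1 in the mild group and 1 in all CUMS rats (Gsta3), against 0 by limma as reported, and the cause was not tested. The median of the members in the major group ran from −0.74 to −0.04 when each rat was left out in turn, −0.04 being without control 3. It ran from −0.63 to −0.12 in the mild group, from −0.62 to −0.07 in all CUMS rats and from −0.13 to 0.12 in major against mild. Without Krt7, an alternative chosen after seeing the data, the medians against control were −0.62 in the major group, −0.37 in the mild group and −0.51 in all CUMS rats.

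Single log2 fold changes changed sign when 1 rat was left out, as these ranges show. In major against mild they ran from −0.33 to 0.09 for Krt19, −0.05 to 0.52 for Krt7, −0.29 to 0.14 for Epcam, −0.70 to 0.12 for Cftr and −0.60 to 0.09 for Cd24. In the major group against control they ran from −0.46 to 0.08 for Krt7, −1.10 to 0.06 for Cftr and −0.21 to 0.04 for the second Aqp1 probe set. In the mild group against control they ran from −0.82 to 0.28 for Cftr, −0.72 to 0.13 for Cd24 and −0.05 to 0.22 for the second Aqp1 probe set. In all CUMS rats they ran from −0.93 to 0.17 for Cftr and −0.12 to 0.13 for the second Aqp1 probe set. That probe set also stood at 0.03 with quantile normalization, 0.02 with median centring and 0.05 with array weights in all CUMS rats, and Epcam at 0 with array weights in major against mild. Krt19 against control ran from −1.36 to −0.75 in the major group, −1.29 to −0.68 in the mild group and −1.32 to −0.72 in all CUMS rats.

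The labels number both the major rats and the controls 1 to 3. After removal of the group means, rats of the same number correlated at 0.003, −0.049 and 0.14. The labels give no pairing beyond the number, and these values cannot show whether litters or batches were shared. With the replicate number as a block, 0 probe sets were called in the major group against control, the median of the members was −0.48 and Krt19 stood at −1.09 (adjusted p = 0.569 from limma). A probe set near background, as that of Krt7, limits what its signal can show.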
